A study of Mus musculus with 20 samples.

Results

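The printed glycan array of 419 compounds held 8 oligosaccharides built only of glucose, and the binding of natural antibodies to them is described here in the serum of BALB/c mice. The members were taken by their structures in the deposited list of compounds, as chains of at least 2 residues in which every residue is glucose and none carries a sulfate, with the negative control trehalose-ethanolamine left out. Serum was drawn from untreated BALB/c mice aged 10 weeks, an inbred strain kept free of specific pathogens, with females and males as the only 2 groups. Each serum was diluted 1:15 and incubated on 1 array, and bound IgM and IgG were detected together with a biotin-labelled goat antibody and streptavidin carrying the dye Cy5. IgM therefore cannot be told apart from IgG in any value. Signals are given in relative fluorescence units (RFU), for each serum as the median of the compound's 6 spots, and a mouse is said to bind a compound at 4000 RFU or more, which is the threshold the study used.

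Glucose chains differ in the anomer and position of their bonds. Chains with α1-4 bonds are those of starch and glycogen, and maltose is their disaccharide unit. Chains with α1-6 bonds form the backbone of dextrans, which certain lactic acid bacteria secrete. The β1-4 bond is that of cellulose, with cellobiose as its unit, and the β1-6 bond of gentiobiose also occurs in glucans of fungal cell walls. Natural antibodies circulate without deliberate immunisation, and bacterial and food polysaccharides are among the antigens they are known to meet.

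6 of the 8 members have α bonds and 2 have β bonds, and the set holds no 1-3 bond. The α1-4 series is made of maltose, Glcα1-4Glcβ-sp3 (compound 110), maltotriose, (Glcα1-4)3β-sp4 (240), and maltotetraose, (Glcα1-4)4β-sp4 (390). The α1-6 series is made of isomaltotriose, (Glcα1-6)3β-sp4 (241), isomaltopentaose, (Glcα1-6)5β-sp4 (492), and compound 502, (Glcα1-6)6β-sp4. The structure given for 502 has α1-6 bonds, but its common name in the same list is maltohexaose, which would have α1-4 bonds. The files do not settle which is right, and 502 is called the α1-6 hexamer by its listed structure. The β members are cellobiose, Glcβ1-4Glcβ-sp4 (111), and gentiobiose, Glcβ1-6Glcβ-sp4 (112). Maltose is printed on an aminopropyl spacer (sp3) and the other 7 members on a glycylamide spacer (sp4), so any comparison with maltose also changes the spacer. The α1-4 and α1-6 trimers share length and spacer and differ in the bond, and cellobiose and gentiobiose differ likewise.

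The labels give 13 females and 7 males, but the arrays of BALB/c-44 and BALB/c-45 hold the same intensity in 2664 of 2664 spots and were counted as 1 female, which leaves 19 mice, 12 females and 7 males, named here by their labels. The labels do not say which mice shared a cage, and the precision of all values is limited by how few arrays there are. Array medians, taken over all compounds, lay between 126.5 and 1504.5 RFU, spots of printing buffer from 93.5 to 2044.5 RFU (median 577.5 RFU), and the negative control from 55 to 914 RFU (median 238.5 RFU). Arrays fell into 2 sets by the signal ratio of the printed peptides 902 and 900, a split made after the values were seen and named by no label. The 9 arrays with the higher ratio (7 females, 2 males) had array medians of 126.5 to 411.5 RFU, and the 10 with the lower ratio (5 females, 5 males) 603 to 1504.5 RFU. On 5 arrays, all with the higher ratio (BALB/c-17, BALB/c-19, BALB/c-20, BALB/c-42 and BALB/c-56), some of the last blocks were read 702 to 13138 µm away from their usual position, so that 2 of the 6 spots of several members were read near 0. Leaving these spots out moved 25 of the 152 member values upwards, by 1.03 to 2.80 times, and changed 0 of the calls at 4000 RFU.

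7 of the 8 members were bound by at least 1 mouse, where 54.9% of all 419 compounds were. None of the 8 reached 4000 RFU as a median over mice, where 8.11% of all compounds did. Members were bound in a median of 4.5 mice, against a median of 1 mouse over all 419 compounds, and the median over members of the highest value in any mouse was 42825.8 RFU, against 4796 RFU over all compounds. The spread between mice, as the SD of log2 RFU, had a median of 2.14 for the members and 1.44 for all compounds. Most members were thus bright in some mice and near the buffer in others. Isomaltotriose was bright in none, at 1323.5 RFU at most. Of 152 pairs of a member and a mouse, 37 reached 4000 RFU, and in 23 of these all 6 spots did. In the rest at least 3 spots did. 15 of the 19 mice bound at least 1 member and 4 bound none. A single mouse bound up to 5 of the 8 members, and from 24 (BALB/c-44) to 90 (BALB/c-65) of all 419 compounds.

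**Figure D1:**
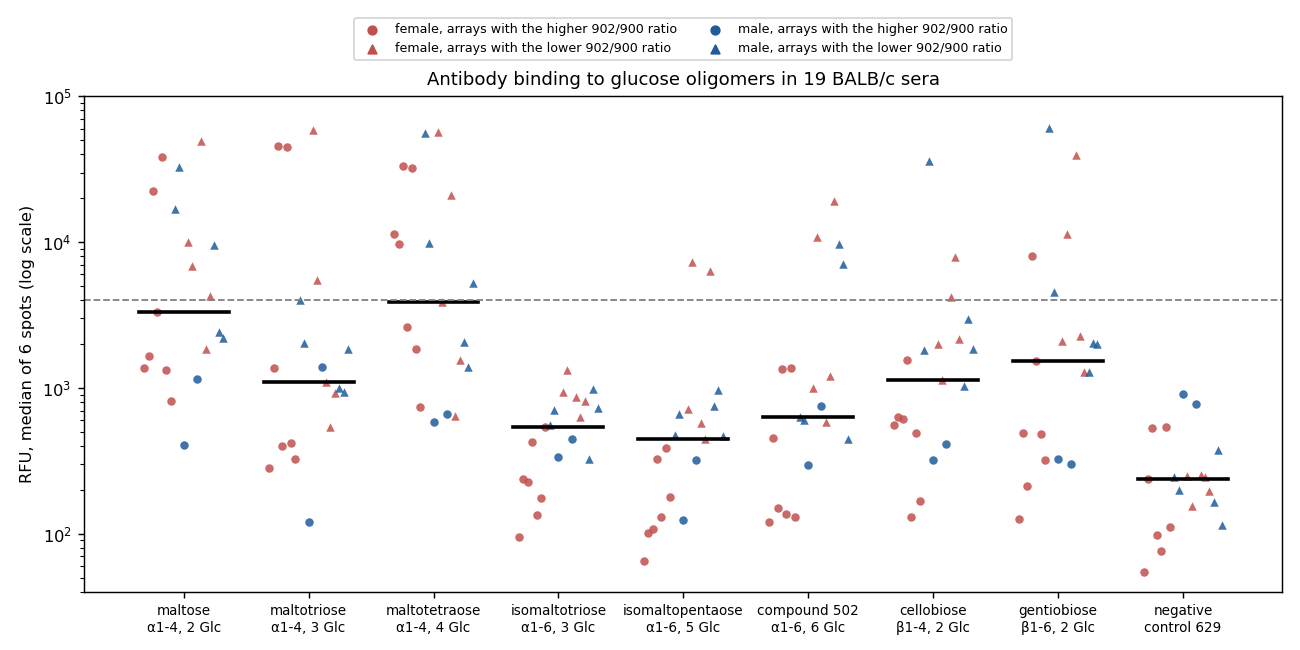
RFU of the 8 members and of the negative control on a log scale, 1 point per mouse (19 mice, placed in order of mouse number), with females red, males blue, arrays with the higher 902/900 ratio as circles and the others as triangles. Black bars are medians over mice and the dashed line is 4000 RFU; the α1-4 members reach 49639.5 to 58369 RFU in single mice, whereas isomaltotriose reaches 1323.5 RFU at most.

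Maltose and maltotetraose were the members bound most often. Maltose ran from 404.5 RFU in BALB/c-56 over a median of 3326 RFU ± 2511 (MAD, n = 19) to 49639.5 RFU in BALB/c-87. It was bound by 9 mice (47.4%, exact binomial 95% interval 24.4 to 71.1%), and it exceeded the buffer on all 19 arrays. Maltotetraose ran from 582 RFU in BALB/c-56 over 3866.5 RFU ± 3225 to 57046.5 RFU in BALB/c-65, and was also bound by 9 mice. Both medians lay just under the threshold, and values lay close to it on either side, at 3326 and 4243.5 RFU for maltose and at 3866.5 and 5266 RFU for maltotetraose. Pixels of 2 of 114 spots were saturated for maltose and of 9 of 114 for maltotetraose, so that the highest values are lower bounds.

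Maltotriose, the chain length between them, ran from 121 RFU over a median of 1101.5 RFU ± 757 (MAD, n = 19) to 58369 RFU and was bound by 5 mice (26.3%, exact binomial 95% interval 9.15 to 51.2%). BALB/c-20, BALB/c-38 and BALB/c-65 stood far above the others, at 45869.5, 44697.5 and 58369 RFU. BALB/c-70 followed at 5531 RFU and BALB/c-48 at 4010.5 RFU, where only 3 of the 6 spots were above the threshold. The highest mouse not counted, BALB/c-53, had 2023.5 RFU. Saturated pixels were found in 7 of its 114 spots. All 5 mice that bound maltotriose also bound maltose, and 4 of them maltotetraose.

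The order of the 3 α1-4 chains differed from mouse to mouse. 12 mice bound at least 1 of them: 4 bound all 3, 3 bound 2 and 5 bound 1. Maltose was the brightest in 5 of the 12, maltotetraose in 4 and maltotriose in 3, and maltotriose was the dimmest in 8. In BALB/c-87 maltose read 49639.5 RFU and maltotetraose 21040 RFU, but maltotriose only 1101.5 RFU, which was 1.30 times the buffer on that array. Its 6 maltotriose spots lay between 558 and 1239 RFU and its 6 maltotetraose spots between 17335 and 28658 RFU, so the gap was far outside the spread of the spots. In BALB/c-17 maltotetraose read 11357 RFU (20858 RFU without the displaced spots), maltose 1361.5 RFU and maltotriose 281 RFU. BALB/c-48 had 16934 RFU for maltose, 4010.5 RFU for maltotriose and 56224 RFU for maltotetraose. In BALB/c-20 and BALB/c-38 all 3 chains were bright and lay within a factor of 2.05 and 1.39 of each other, with all spots kept. Without the displaced spots BALB/c-20 had 24364 RFU for maltose, 52841.5 RFU for maltotriose and 42064.5 RFU for maltotetraose. With the displaced spots left out, the spots of the brightest and the next brightest chain overlapped in 6 of the 12 mice (8 with these spots kept), so that the first rank is not resolved in those 6. Of the 8 mice with maltotriose dimmest, its spots lay apart from those of the next chain only in BALB/c-48, BALB/c-53 and BALB/c-87. They overlapped in BALB/c-17, BALB/c-19, BALB/c-90, BALB/c-104 and BALB/c-107, where the last rank is not resolved.

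**Figure D2:**
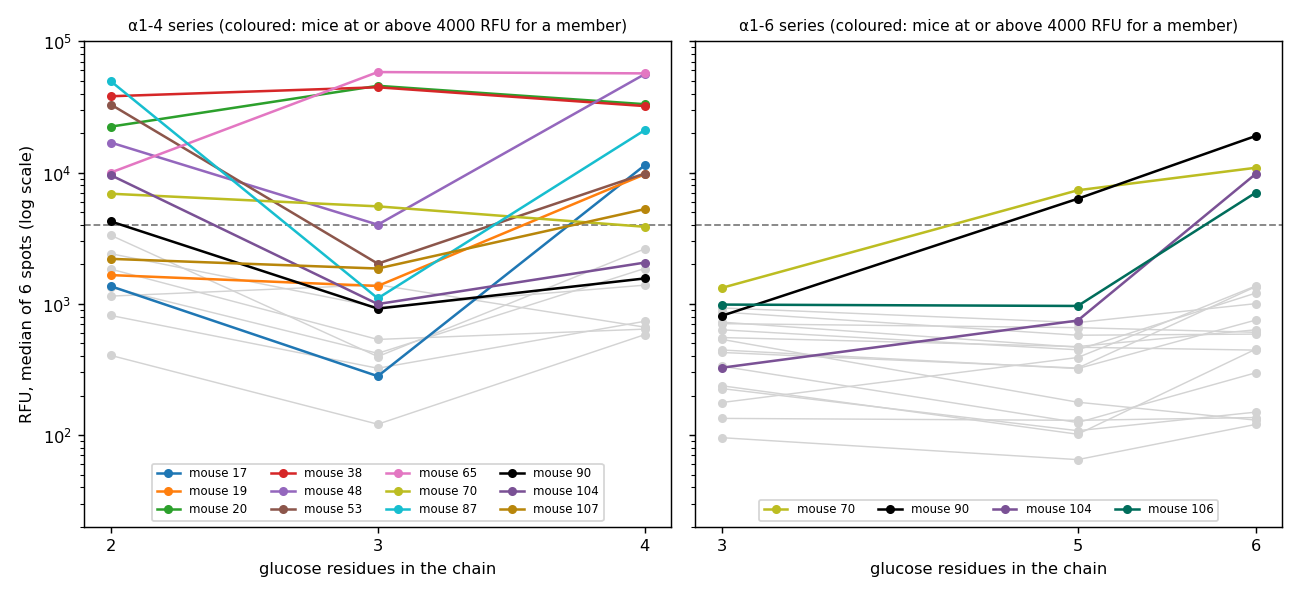
RFU on a log scale against the number of glucose residues, for the α1-4 series (left) and the α1-6 series (right), with 1 line per mouse. Coloured lines are mice at or above 4000 RFU (dashed) for at least 1 member of the series and grey lines the others; in BALB/c-87 the α1-4 line falls from 49639.5 RFU at 2 residues to 1101.5 RFU at 3 and returns to 21040 RFU at 4.

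The α1-6 chains were bound by 0, 2 and 4 mice in order of length. Isomaltotriose ran from 95.5 RFU over a median of 536 RFU ± 274.5 (MAD, n = 19) to 1323.5 RFU, and 8 of the 19 mice were at or below their buffer spots. It was the only member that no mouse bound, and 0 of 19 mice allows a share of up to 17.6% (exact binomial, 95%). Isomaltopentaose ran from 65 RFU over 446.5 RFU ± 273.5 to 7335.5 RFU, with 14 mice at or below the buffer. BALB/c-90 (6321 RFU) and BALB/c-70 (7335.5 RFU) bound it, and the next mouse was at 963.5 RFU. The α1-6 hexamer ran from 120.5 RFU over 634 RFU ± 498 to 19006 RFU. It was bound by BALB/c-90 (19006 RFU), BALB/c-70 (10884 RFU), BALB/c-104 (9763 RFU) and BALB/c-106 (7025.5 RFU), and the next mouse was at 1367 RFU. The 2 mice that bound the pentamer were thus among the 4 that bound the hexamer, and BALB/c-104 and BALB/c-106 had only 746 and 963.5 RFU for the pentamer. All 4 were among the 10 arrays with the lower ratio. These 10 arrays also had the higher general signal, and its part in this count was not tested.

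The β-linked disaccharides were bound by few mice. Cellobiose ran from 129.5 RFU over a median of 1133.5 RFU ± 721 (MAD, n = 19) to 36012 RFU and was bound by BALB/c-53 (36012 RFU), BALB/c-88 (7884.5 RFU) and BALB/c-87 (4226.5 RFU). Gentiobiose ran from 126 RFU over 1534.5 RFU ± 1207 to 60585.5 RFU. It was bound by BALB/c-48 (60585.5 RFU), BALB/c-87 (39397.5 RFU), BALB/c-70 (11411.5 RFU), BALB/c-37 (8028.5 RFU) and BALB/c-53 (4534.5 RFU), and 8 of its 114 spots held saturated pixels. In BALB/c-48 all 6 gentiobiose spots lay between 53273 and 62638 RFU while its cellobiose spots lay between 902 and 2185 RFU. BALB/c-53 had the opposite order. BALB/c-53 and BALB/c-87 bound both β members. The single glucose residues printed on the same 2 spacers, Glcβ-sp3 (009) and Glcβ-sp4 (030), ran up to 3255.5 and 4201.5 RFU, and only BALB/c-88 reached the threshold for Glcβ-sp4.

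By class of bond, 12 mice bound an α1-4 member, 4 an α1-6 member and 6 a β member. 4 of the 6 mice with β binding also bound an α1-4 member, and 3 of the 4 with α1-6 binding did. Only BALB/c-70 bound members of all 3 classes. The 15 mice that bound a member showed 10 different combinations of members, among them maltose, maltotriose and maltotetraose together in BALB/c-20, BALB/c-38 and BALB/c-65 and maltotetraose alone in BALB/c-17, BALB/c-19 and BALB/c-107. Of the 37 calls, 28 came from the 10 arrays with the lower ratio and 9 from the 9 arrays with the higher ratio. All 10 arrays of the first kind and 5 of the second bound a member. In the same order, 51 to 90 and 24 to 52 of all 419 compounds were bound per mouse. Counts of calls thus moved with the array set. A log2 difference between compounds within a mouse takes out a factor that multiplies all signals of an array. It does not take out an added background, which was left in, or saturation.

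**Figure D3:**
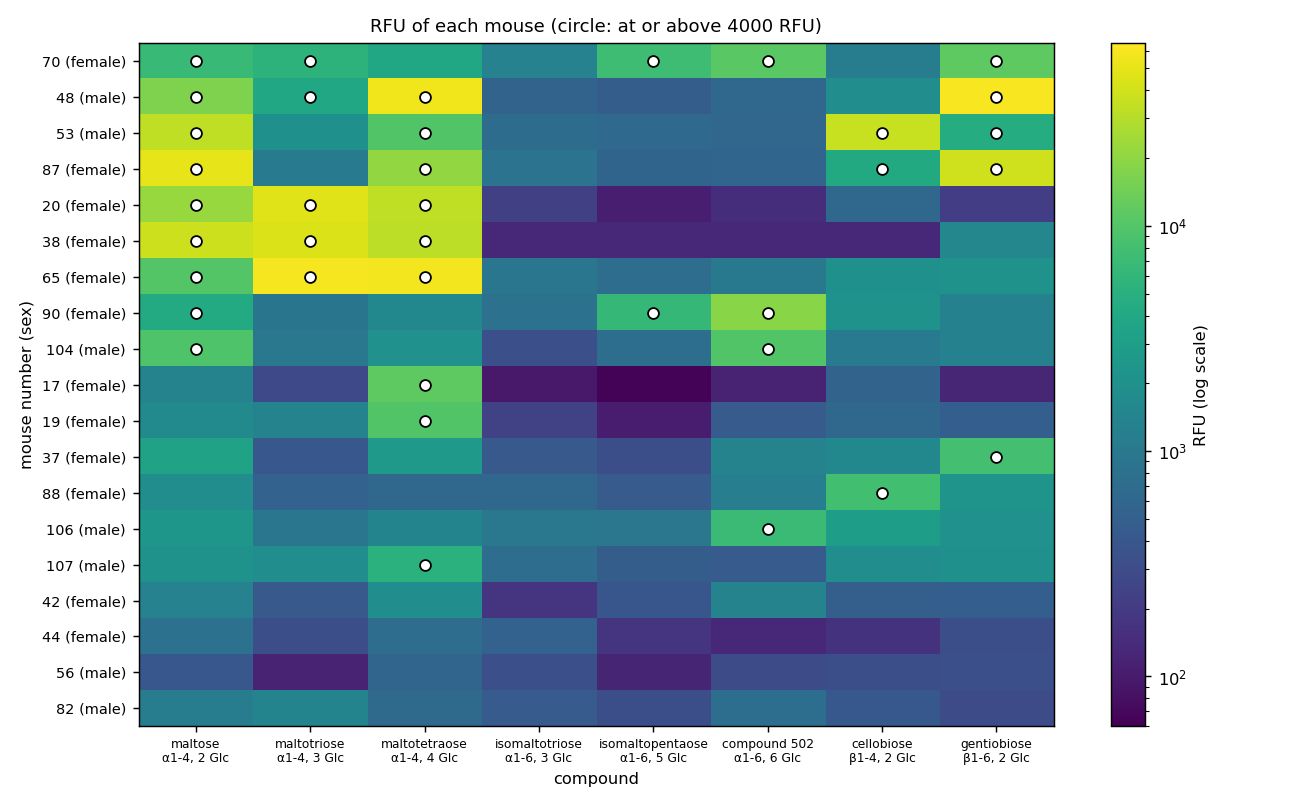
RFU (colour, log scale) of each of 19 mice (rows, with the sex) for the 8 members (columns, by bond and chain length), with a white circle at or above 4000 RFU. Mice are ordered by the number of members bound, from 5 in BALB/c-70 to 0 in BALB/c-42, BALB/c-44, BALB/c-56 and BALB/c-82; the isomaltotriose column holds no circle.

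Compounds on the same array were compared within mice as differences in log2 RFU, with values set to at least 100 RFU, by a two-sided permutation test of 100000 sign flips. p-values were adjusted over 33 pairs, the 28 pairs of members and 5 pairs with related sugars. 22 of the 33 pairs, and 20 of the 28 member pairs, had an adjusted p under 0.05. Intervals are 95% intervals of the mean difference over 19 mice. How much of each compound the spots held was not measured in the values used here, so a constant offset between 2 compounds from their printing cannot be told apart from a difference in antibody binding.

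Chain length was compared first. At equal bond and spacer, maltotriose was lower than maltotetraose by a mean of 1.49 log2 units, with a difference of -1.49 (interval -2.35 to -0.65, adjusted p = 0.0041 by sign-flip permutation) and lower values in 14 of 19 mice. Maltose was higher than maltotriose by 1.42 (0.52 to 2.33, adjusted p = 0.0082), in 15 of 19 mice, with the spacer differing too. Maltose and maltotetraose did not differ beyond the spread between mice, at -0.07 (-0.83 to 0.68, adjusted p = 0.89). This interval still allows a difference of up to 1.77-fold in favour of maltotetraose. In the α1-6 series, the pentamer was lower than the hexamer, with a difference of -1.04 (-1.58 to -0.51, adjusted p = 0.0017), in 16 of 19 mice. With every signal raised to at least the median of the buffer spots on its array, this difference was -0.73 (adjusted p = 0.0012 by sign-flip permutation). Isomaltotriose and isomaltopentaose differed by 0.05 (-0.54 to 0.62, adjusted p = 0.89), with most values of both near the buffer. Isomaltotriose was lower than the hexamer, at -0.99 (-1.90 to -0.10, adjusted p = 0.045). That call was lost when any of 11 mice (BALB/c-17, BALB/c-19, BALB/c-37, BALB/c-42, BALB/c-65, BALB/c-70, BALB/c-82, BALB/c-88, BALB/c-90, BALB/c-104 or BALB/c-106) was left out (adjusted p 0.051 to 0.090 by sign-flip permutation) and without the displaced spots (-0.77, adjusted p = 0.13).

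The position of the bond was compared at equal length and spacer. Maltotriose (α1-4) was higher than isomaltotriose (α1-6) by 1.91 log2 units (0.63 to 3.21, adjusted p = 0.0041 by sign-flip permutation), in 14 of 19 mice. The largest gap was in BALB/c-38, where maltotriose had 44697.5 RFU and isomaltotriose 134 RFU. BALB/c-20 (45869.5 and 226 RFU) and BALB/c-65 (58369 and 930.5 RFU) also had wide gaps. Only 5 of the 19 mice bound maltotriose and none bound isomaltotriose, so in the others signals below the threshold were compared. Cellobiose (β1-4) and gentiobiose (β1-6) differed by -0.44 (-1.48 to 0.59, adjusted p = 0.45), with single mice far to either side, from -5.05 in BALB/c-48 to 2.99 in BALB/c-53. For the anomer, maltose (α1-4) was higher than cellobiose (β1-4) by 1.91 (0.87 to 2.99, adjusted p = 0.0021), in 16 of 19 mice, and these also differ in the spacer. Across lengths and spacers, maltose and maltotetraose were higher than isomaltotriose in all 19 mice, by 3.33 (2.29 to 4.38) and 3.40 (2.13 to 4.67), each with an adjusted p of 0.00033 by sign-flip permutation. Without the displaced spots, however, BALB/c-56 had the reverse order, with 404.5 RFU for maltose and 494 RFU for isomaltotriose. In BALB/c-88 maltotetraose (641.5 RFU) and isomaltotriose (634 RFU) were nearly equal, both below the buffer of that array (1036 RFU). Maltotriose and the α1-6 hexamer differed by 0.92 (-0.78 to 2.64, adjusted p = 0.34), with maltotriose higher in 11 mice and lower in 8. Maltotetraose was also above gentiobiose, by 1.54 (0.25 to 2.86, adjusted p = 0.033), but that call was lost when any of BALB/c-17, BALB/c-19, BALB/c-20, BALB/c-38, BALB/c-42 or BALB/c-65 was left out (adjusted p 0.052 to 0.065).

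**Figure D4:**
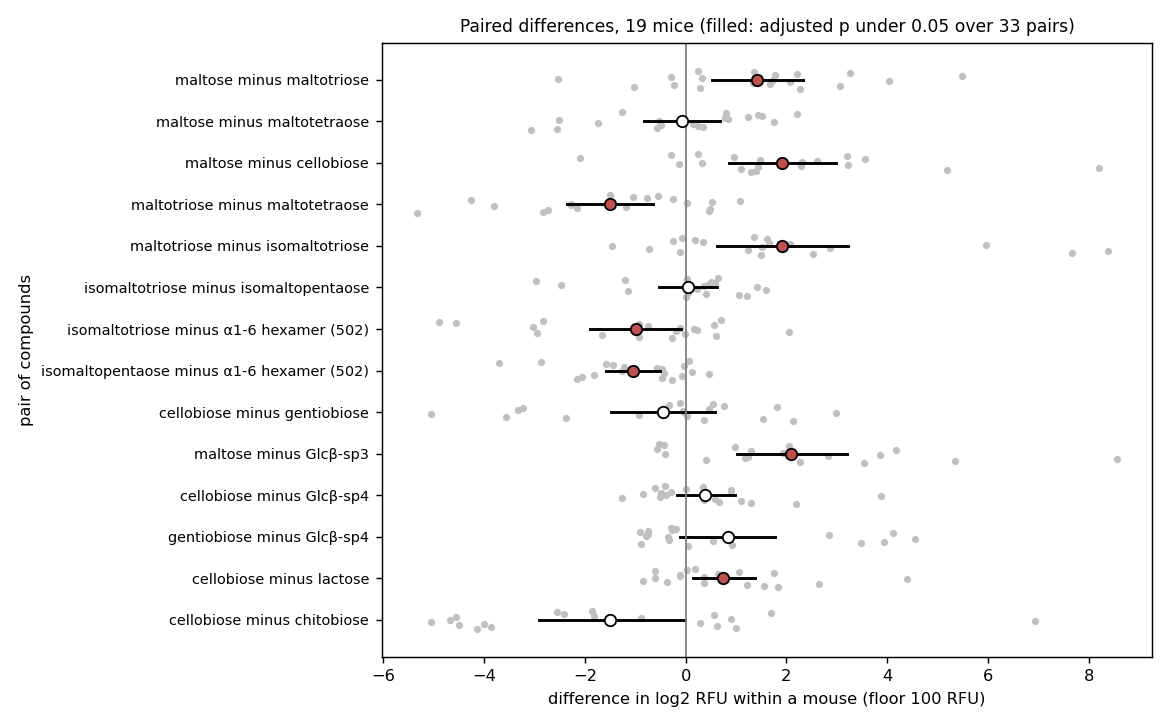
Difference in log2 RFU within a mouse for 14 pairs of compounds that differ in chain length, bond, anomer or sugar. Grey points are the 19 mice, large circles the mean and lines its 95% interval, and circles are filled where the adjusted p over 33 pairs was under 0.05 (8 of the 14); the interval of maltose minus maltotetraose runs from -0.83 to 0.68.

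Against the single residue on its own spacer, maltose was higher than Glcβ-sp3 by 2.09 log2 units (1.01 to 3.21, adjusted p = 0.0012 by sign-flip permutation), in 15 of 19 mice. Cellobiose differed from Glcβ-sp4 by 0.39 (-0.16 to 0.97, adjusted p = 0.23) and gentiobiose by 0.83 (-0.11 to 1.76, adjusted p = 0.10). A second glucose in a β bond therefore gave no difference that passed the test, and the intervals allow increases of up to 1.96-fold and 3.40-fold. Cellobiose was above lactose, Galβ1-4Glcβ-sp4 (093), which differs only in the sugar at the end, by 0.74 (0.14 to 1.37, adjusted p = 0.025), in 13 of 19 mice. Taking the mean of the 6 spots, this was 0.62 (adjusted p = 0.069). Chitobiose, GlcNAcβ1-4GlcNAcβ-sp4 (117), which carries an N-acetylamino group on both residues, was bound by 11 mice at a median of 6753 RFU. Cellobiose minus chitobiose was -1.49 (-2.92 to -0.02, adjusted p = 0.068). Leaving out BALB/c-53, the brightest for cellobiose and at 296.5 RFU for chitobiose, brought it to -1.96 (adjusted p = 0.0083 by sign-flip permutation), and raising signals to the buffer spots to -1.65 (adjusted p = 0.024). BALB/c-53 was the only mouse whose removal changed the call. Without spots flagged as not found by the scanner software the difference was -1.29 (adjusted p = 0.13). It was -2.65 on the arrays with the higher ratio (adjusted p = 0.064) and only -0.45 on those with the lower ratio (adjusted p = 0.70).

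Within the 2 array sets the mean differences of these matched pairs kept their sign where they had passed the test. Maltotriose minus maltotetraose was -1.61 on the arrays with the higher ratio and -1.39 on those with the lower ratio, maltotriose minus isomaltotriose 2.30 and 1.56, the pentamer minus the hexamer -0.98 and -1.09, and maltose minus cellobiose 2.52 and 1.36. With 9 and 10 mice fewer pairs passed, 15 of 33 in the first set and 4 of 33 in the second. The first 2 of these differences missed the threshold in either set alone (adjusted p 0.082 and 0.055 for maltotriose minus maltotetraose, 0.11 and 0.055 for maltotriose minus isomaltotriose, by sign-flip permutation). So did maltose minus maltotriose (0.11 and 0.10), isomaltotriose minus the hexamer (0.42 and 0.15) and cellobiose minus lactose (0.24 and 0.11). The pentamer minus the hexamer (0.055), maltose minus cellobiose (0.11) and maltose minus Glcβ-sp3 (0.073) missed it in the set with the lower ratio only.

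Signals of the members were then compared across mice, as Pearson's r and Spearman's rho of log2 RFU centred within the 2 array sets, with 100000 shuffles of mice within sets and adjustment over 28 pairs. Points of 1 mouse share an array and its general level, of which centring removes only the set's part. 4 of the 28 pairs passed, the same 4 by r and by rho, and each lies within 1 class of bond. They are isomaltopentaose with the α1-6 hexamer (r = 0.79, permutation p = 6e-05, adjusted p = 0.0017; rho = 0.75, permutation p = 0.00085, adjusted p = 0.012) and the 3 pairs of the α1-4 series. Maltose with maltotetraose had r = 0.76 (permutation p = 0.00017, adjusted p = 0.0024) and rho = 0.79 (permutation p = 0.00018, adjusted p = 0.0050). Maltotriose with maltotetraose had r = 0.73 (permutation p = 0.00039, adjusted p = 0.0036) and rho = 0.64 (permutation p = 0.0042, adjusted p = 0.029). Maltose with maltotriose had r = 0.69 (permutation p = 0.0050, adjusted p = 0.035) and rho = 0.65 (permutation p = 0.0040, adjusted p = 0.029).

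Without the 2 mice farthest from the median of the first compound, r was 0.71 for the pentamer with the hexamer, 0.68 for maltose with maltotetraose and 0.62 for maltotriose with maltotetraose. For maltose with maltotriose r fell to 0.40 and rho from 0.65 to 0.51, so that the linear relation in large part rests on those 2 mice. Within the sets with the higher and the lower ratio, r was 0.81 and 0.79, 0.83 and 0.69, and 0.76 and 0.72 for the first 3 pairs, and 0.93 and 0.24 for maltose with maltotriose, where rho was 0.68 and 0.53. The pentamer was bound only by BALB/c-70 and BALB/c-90, and 14 of the 19 mice were at or below their buffer spots for it. On the arrays with the higher ratio no mouse bound the pentamer or the hexamer. Outside BALB/c-70 and BALB/c-90, their correlation is thus one of pentamer signals below the threshold, mostly at the level of the buffer. Isomaltotriose with isomaltopentaose had r = 0.41 (permutation p = 0.054, adjusted p = 0.21), and cellobiose with gentiobiose r = 0.12 (permutation p = 0.66, adjusted p = 0.82). Between classes r ran from -0.52 for maltotetraose with the α1-6 hexamer (adjusted p = 0.16, permutation) to 0.46 for maltose with gentiobiose (adjusted p = 0.21), and none passed.

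**Figure D5:**
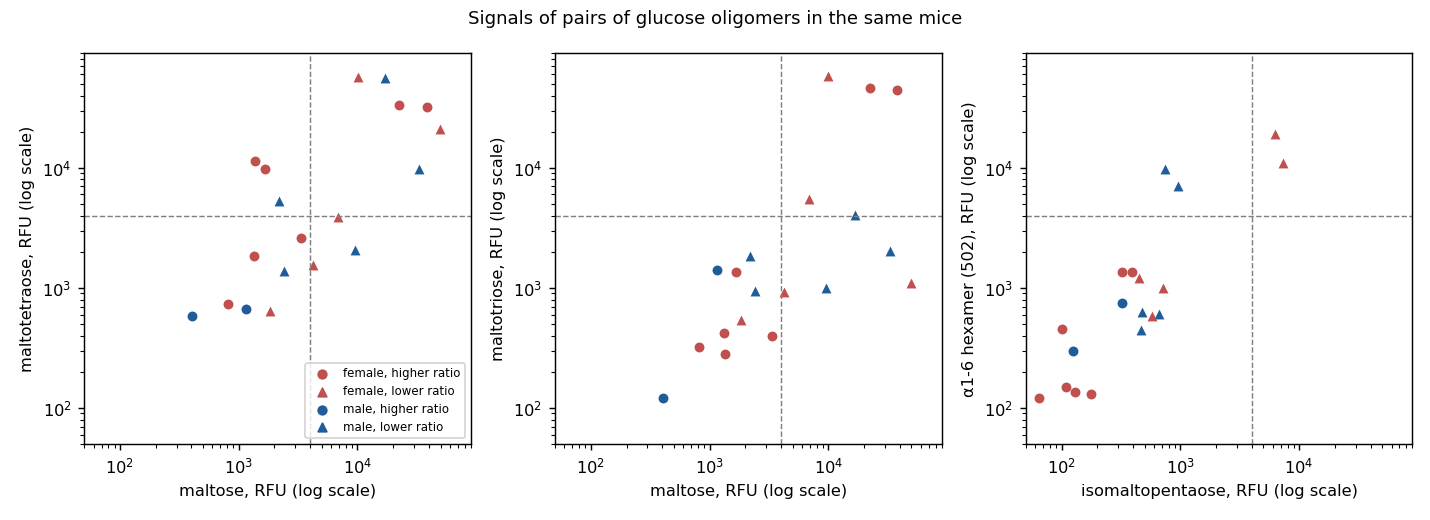
RFU of 2 compounds in the same 19 mice on log scales, for maltose and maltotetraose (left), maltose and maltotriose (middle) and isomaltopentaose and the α1-6 hexamer (right), with females red, males blue, the higher-ratio arrays as circles and the others as triangles. Dashed lines are 4000 RFU; in the middle plot BALB/c-53, BALB/c-87 and BALB/c-104 lie far right with maltotriose at 2023.5, 1101.5 and 996 RFU.

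Among the other 418 compounds of the array, the 3 whose centred log2 RFU had the highest Spearman rho with each member over the 19 mice were listed, as a description. Each α1-4 member had the other 2 α1-4 members in first and second place (rho 0.64 to 0.79). The third place was taken by 6-O-Su-Galβ1-4GlcNAcβ-sp2 (162) for maltose at 0.46, by 4,6-O-Su2-Galβ1-4GlcNAcβ-sp2 (183) for maltotriose at 0.59, and by the branched chain MFLNH I (539) for maltotetraose at 0.42. The pentamer and the hexamer of the α1-6 series were each other's nearest compound (0.75), followed for the hexamer by Manβ1-4GlcNAcβ-sp4 (123) at 0.63. Isomaltotriose, in contrast, had no glucose oligomer among its 3 nearest, and these (rho 0.56 to 0.59) were compounds bound by 0 mice. Neither β member had a glucose oligomer among its nearest. Cellobiose was nearest to Galβ1-3GlcNAcβ-sp4 (208) at 0.72, bound by 0 mice. Gentiobiose was nearest to Galβ1-3GalNAc(fur)β-sp3 (802) at 0.67 and to Galβ1-6Galβ1-4Glcβ-sp4 (271) at 0.64, both bound by all 19 mice with medians of 60836.5 and 60328.5 RFU. Of their 114 spots each, 88 and 90 held saturated pixels, which limits what their order among mice can show.

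Females and males overlapped for every member. Maltose ran from 815 over a median of 3784.8 to 49639.5 RFU in 12 females and from 404.5 over 2410 to 32996 RFU in 7 males. Maltotetraose ran from 641.5 over 6783.8 to 57046.5 RFU in females and from 582 over 2061 to 56224 RFU in males. Maltotriose was bound by 4 of 12 females and 1 of 7 males, and its highest male value was 4010.5 RFU. In limma, fitted over all 419 compounds, 0 of the 8 members differed between the sexes at an adjusted p under 0.05, where 1.67% of all compounds did, and 0 had an unadjusted p under 0.05. The exact permutation test over all 50388 assignments of mice also called 0 of 8. The differences, female minus male in mean log2 RFU, ran from -0.87 for cellobiose (95% interval -2.69 to 0.95) to 0.91 for maltotetraose (-1.08 to 2.90), and these intervals hold differences of several fold either way. The median over all 419 compounds was -0.75, lower in females, and relative to it every member but cellobiose was higher in females. With the array set as a term that median was -0.27, and 7 of the 8 members were then higher in females with none called. None of the 33 within-mouse differences between compounds differed between the sexes (exact permutation test, smallest adjusted p = 0.92, 0 with an unadjusted p under 0.05).

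Replicate spots set the resolution of single values. Within an array, the median absolute deviation over the 6 spots was 21.4 to 38.6% of the RFU as a median over mice, lowest for maltose and highest for gentiobiose. It was 36.3% for isomaltotriose, of whose 114 spots 33 were flagged as not found by the scanner software, against 5 of 114 for maltose. Between mice the MAD was 75.5% of the median for maltose and 83.4% for maltotetraose, compared with 21.4 and 23.7% within arrays. With 1 array per serum, the first of these spreads also holds the variation between arrays.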

How the data were processed

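The intensities used are the authors' mean pixel values per spot, read on a linear scale with ScanArray Express from 1 array per serum. They also deposited the local background, the flags and the percent of saturated pixels of each spot. The deposited table of the series gives structures, an RFU per compound and a count of animals at or above 4000 RFU, used only for structures and for a comparison in the closing section. The file headers list a scaling that needs a second channel, and none was seen in the values.

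The RFU of a compound is the median of its 6 spots with the local background left in and no scaling between arrays. Members, pairs and tests were chosen with earlier results of these data known. The compounds named are the 8 members, the related sugars Glcβ-sp3, Glcβ-sp4, lactose and chitobiose, the negative control, and for each member the 3 compounds nearest to it by Spearman's rho. A floor of 100 RFU was applied before log2. The design had listed 20 samples, of which 19 were distinct. Pairs were tested with 100000 sign flips, and their intervals hold the shifts this test does not reject at the 95% level. The sexes were compared with limma 3.58.1 (trend) in R 4.3.3 over 419 compounds and with exact permutations, the remaining steps with Python 3.11.15 (scipy 1.17.1, numpy 2.4.6, pandas 2.3.3, matplotlib 3.10.9). Adjusted p-values follow Benjamini and Hochberg. Labels name no scan, slide or animal batch, and p-values measure the spread between these mice. The tests were tried on simulated data with known shifts, drawn as independent normal values without array sets, saturation or a shared array level. That trial does not cover these features of the arrays. Displaced blocks were those over 500 µm from their usual position, and leaving them out was chosen after seeing the data.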

Additional observations from a re-analysis of the deposited data

Results flagged for a closer look

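In the 7 males, 3 of the 8 members had a highest mouse that stood apart from the others by Dixon's criterion at the 95% level, taken on the linear RFU, where 30.8% of all 419 compounds did in the same males. Chance meets the criterion in about 1 of 20 groups where values are close to normal, which linear RFU are not. On log2 RFU none of the 3 passed (ratios 0.38 to 0.53 against a critical value of 0.568), and the only member that did was maltotriose, where 9.55% of all compounds did, through its lowest male BALB/c-56 at 121 RFU, whose array is one of those with displaced blocks. The log2 scale was added after seeing the data. Females, of whom there are 12, were not tested in this way. Maltotetraose read 56224 RFU in BALB/c-48, and the next male, BALB/c-53, had 9824.5 RFU. Gentiobiose read 60585.5 RFU in the same BALB/c-48, and the next male had 4534.5 RFU. Cellobiose read 36012 RFU in BALB/c-53, and the next male had 2957.5 RFU. All 6 spots of each of these values were above 4000 RFU, and neither array had a displaced block.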

How the results depend on the processing

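The number of members bound by at least 1 mouse and the numbers of members and pairs that differed between the sexes changed by less than 1.5 times under every alternative run. The number of pairs of compounds that passed, 22 of 33, fell to 4 on the 10 arrays with the lower ratio alone (15 on the 9 arrays with the higher ratio), and the cause was not tested. Leaving out each mouse in turn gave 20 to 23. The number of correlations between members that passed, 4 of 28, rose to 10 when mice were pooled with no centring within array sets, which leaves the level of the sets in. Over the values of single members, pairs and correlations, 601 of 641 kept their side of the threshold or moved by less than the spread between mice. 23 of 513 differences and correlations changed sign, none of them called in either setting. Quantile normalization and the array set as a term each turned the sex difference of isomaltotriose, isomaltopentaose, the α1-6 hexamer and gentiobiose from lower to higher in females. Isomaltotriose minus isomaltopentaose went from 0.05 to -0.16 when raised to the buffer spots. At 8000 RFU isomaltopentaose was bound by 0 mice, cellobiose by 1 and maltotriose by 3, and at 2000 RFU cellobiose by 6 and gentiobiose by 9. Most isomaltotriose and isomaltopentaose values lie near the buffer spots, which limits what can be seen below them. No paired analysis was possible because the replicate numbers of females and males follow the order of the samples and pair no animals, and pairs of compounds were already compared within mice.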

Other observations

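For maltotriose, the authors' value in the deposited table was 11233 RFU with 6 animals at or above 4000 RFU, whereas the 20 deposited arrays gave a mean of 8574.2 RFU and 5 arrays at or above 4000 RFU, a gap of 31.0%. The number of animals was also 1 above the number of arrays for maltose (10 against 9), maltotetraose (10 against 9) and the α1-6 hexamer (5 against 4). The 20 arrays count the array of BALB/c-44 and BALB/c-45 both times and so stand for 19 mice. For the other 7 members the gap between the authors' value and that mean ran from -5.54 to 11.6%. Over the 418 compounds that both hold, the mean over arrays divided by the authors' value had a median of 0.999, and the median over arrays divided by it 0.682, although the column is labelled as a median.

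By the spread of log2 RFU between mice, maltotriose ranked 11 of 419 compounds and gentiobiose 17, whereas isomaltotriose ranked 332. By the median over mice the order was different, with maltotetraose at 35, maltose at 41 and maltotriose at 138.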
